A study of Mus musculus with 52 samples.

Results

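The genes described here are 10 interferon-inducible GTPases, Gbp2, Gbp3, Gbp4, Gbp5, Gbp7, Igtp, Irgm1, Irgm2, Iigp1 and Tgtp1. They were taken by name from the table of normalized counts, where all 10 have a row among 27525 genes, and their levels were compared between the 4 treatment groups of 8 tumors each. The tumors were grown from KPC cells, a pancreatic tumor line from a mouse whose tumors were driven by Pdx1-Cre, placed under the skin of male C57BL/6NHsd mice aged 8 to 10 weeks. Mice were left untreated, or received the STING agonist ADU-S100 (2 µg, once, into the tumor), an agonist antibody to the lymphotoxin β receptor (anti-LTbR, 100 µg per injection, 4 injections), or both agents (combination). All 32 tumors were collected on day 14 after the start of treatment, and polyadenylated RNA of each whole tumor was sequenced. All tumors share 1 cell line and 1 host strain, and each library is 1 tumor. The labels give 8 numbered tumors per group and name no shared litter or cage. The tests treat each tumor as a separate unit, and whether any mouse carried more than 1 of these tumors was not known.

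Interferon gamma, made by T cells and natural killer cells, binds its receptor and sets off signaling that reaches GAS elements and, through IRF1, ISRE elements in the promoters of responding genes. Among the genes it raises most are 2 families of GTPases that defend the inside of the cell. Guanylate-binding proteins (the Gbp genes) coat and break pathogen vacuoles and bacterial surfaces and feed inflammasomes. Of the immunity-related GTPases, Igtp (also called Irgm3), Irgm1 and Irgm2 are regulators that sit on the cell's own membranes and hold the effectors Iigp1 and Tgtp1 inactive there, and the effectors load onto vacuoles that lack these guards. In tumors such genes are read as a sign of interferon action on tumor and stromal cells alike.

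In GRCm38 (GENCODE M21 annotation) Gbp2, Gbp3, Gbp5 and Gbp7 lie together on chromosome 3 between positions 142493978 and 142638008, on the plus strand. Gbp4 lies on chromosome 5 (105115767 to 105139586, minus strand), and Igtp, Irgm1, Irgm2 and Tgtp1 lie on chromosome 11. Tgtp1 shares 83.2% of its 31-base words with its copy Tgtp2, so that the reads of these genes may be split between them by the counting. Igtp and Irgm2 overlap on the same strand and share 162 exon bases, Gbp4 shares 121 with Gbp8 and Gbp9, Gbp7 shares 637 with Gm43802, and Tgtp1 shares 223 with Gm12185. Iigp1, Irgm1, Gbp2, Gbp3 and Gbp5 overlap no other gene on their own strand.

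Where a promoter sequence was at hand, it was searched for GAS and ISRE elements, among others. Of these promoters 4 are shown because their genes moved apart in the comparisons below. RefSeq promoter windows (GRCm38.p6, from 250 bases before to 50 after each start) were at hand for 8 of the 10 genes. Gbp4 and Iigp1 had no entry. The lines below give the bases from 250 to 41 before the start, 5′ to 3′ on the strand of the gene, with capitals for matches to an ISRE core (GAAANNGAA), a GAS element (TTCNNNGAA) or a kB element (GGANTTTCC, to which NF-kB proteins bind) on either strand. They lie at chr3:142496684-142496893 (Gbp5, plus strand), chr3:142530086-142530295 (Gbp7, plus strand), chr11:58214727-58214936 (Irgm2, plus strand) and chr11:48992287-48992496 (Tgtp1, minus strand).
Gbp5: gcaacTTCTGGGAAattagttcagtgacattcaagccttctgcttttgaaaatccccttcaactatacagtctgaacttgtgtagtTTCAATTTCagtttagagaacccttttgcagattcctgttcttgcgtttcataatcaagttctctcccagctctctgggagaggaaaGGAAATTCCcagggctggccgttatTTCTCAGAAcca
Gbp7: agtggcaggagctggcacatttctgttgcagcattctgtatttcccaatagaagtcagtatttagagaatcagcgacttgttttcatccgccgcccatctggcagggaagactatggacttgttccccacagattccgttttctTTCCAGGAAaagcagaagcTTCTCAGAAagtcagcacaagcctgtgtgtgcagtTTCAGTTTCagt
Irgm2: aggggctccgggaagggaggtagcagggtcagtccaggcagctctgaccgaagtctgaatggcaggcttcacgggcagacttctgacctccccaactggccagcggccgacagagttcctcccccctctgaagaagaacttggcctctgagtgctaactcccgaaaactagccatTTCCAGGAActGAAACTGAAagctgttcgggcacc
Tgtp1: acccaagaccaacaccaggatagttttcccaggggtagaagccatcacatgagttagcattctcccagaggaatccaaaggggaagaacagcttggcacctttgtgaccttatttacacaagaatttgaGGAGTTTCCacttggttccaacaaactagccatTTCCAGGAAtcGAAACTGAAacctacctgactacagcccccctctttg

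These 8 genes have 9 windows, since Gbp3 has 2 starts. An ISRE core was found in 8 of the 9 windows, all but the second of Gbp3, against 8.56% of 32851 promoter windows of the same length. GAS elements were found in 5 of the 9, those of Gbp5, Gbp7, Igtp, Irgm2 and Tgtp1, against 8.3% of all windows, and each of these 5 held an ISRE core as well, against 1.07% of all windows. Gbp5 and Tgtp1 also held a kB element, which 1.25% of all windows held. Gbp2, Gbp3 and Irgm1 held ISRE cores and no GAS letters within this window. In Igtp, Irgm2 and Tgtp1 the GAS element stood 2 bases before the ISRE core on the same strand, a spacing noticed in these sequences and then searched for. Only 8 of the 32851 windows (0.0244%) held the pair in this spacing, those of Igtp, Irgm2, Tgtp1, Tgtp2, Gm12185, Adar, Olfr382 and LOC115488470. The pairs of the 3 genes are printed with both elements in capitals, at chr11:58199511-58199530 (Igtp, plus strand), chr11:58214902-58214921 (Irgm2, plus strand) and chr11:48992315-48992334 (Tgtp1, minus strand).
Igtp: TTCTAGGAActGAAACTGAA
Irgm2: TTCCAGGAActGAAACTGAA
Tgtp1: TTCCAGGAAtcGAAACTGAA

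In Gbp5 the elements were spread out instead. Its GAS elements began 245 and 52 bases before the start, its ISRE core 164 bases before and its kB element 77 bases before, whereas in Gbp7 both GAS elements and the ISRE core lay within the last 106 bases. A match of letters is a description of the window, and binding was not measured.

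**Figure D1:**
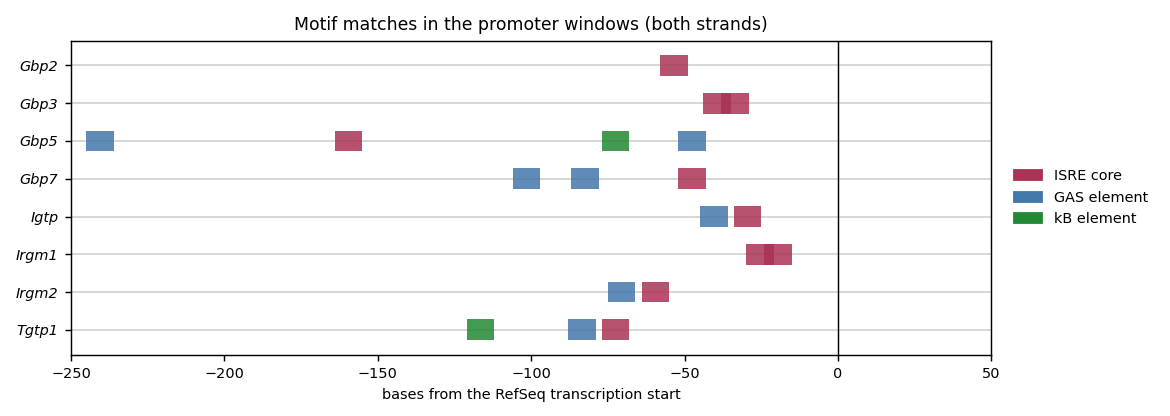
Position of each motif match in the promoter windows of the 8 genes with a RefSeq entry. The x axis is the distance in bases from the transcription start, coloured bars are 9-base matches on either strand, and for Gbp3, which has 2 starts, the window with matches is drawn. ISRE cores appear in all 8 rows, the GAS element and ISRE core stand side by side in Igtp, Irgm2 and Tgtp1, and the matches of Gbp5 are the most widely spaced.

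The 10 genes were strongly expressed in every tumor, also without treatment. Depth was even, with 12762453 to 15591986 reads per tumor recovered from the larger deposited table. Levels are compared between genes only per kilobase of merged exons. On that scale Gbp2 was highest in untreated tumors, at 5539 ± 1409 normalized counts per kilobase (SD, n = 8), followed by the effector Tgtp1 at 3034 ± 1015, the regulator Igtp at 2739 ± 590.0 and the effector Iigp1 at 2340 ± 512.8. Irgm2, Gbp3 and Irgm1 came next, at 1329 ± 249.2, 1260 ± 314.8 and 1084 ± 188.4 normalized counts per kilobase, followed by Gbp4 at 817.8 ± 211.5 and Gbp7 at 519.7 ± 99.21. Gbp5 was the lowest of the 10 at 120.8 ± 23.92. Means of neighbours in this order from Tgtp1 to Iigp1 and from Irgm2 to Irgm1 differed by less than their SDs.

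Across groups, 9 of the 10 genes had their lowest mean in untreated tumors and their highest mean in anti-LTbR tumors. Gbp5 was the exception at the top, with its highest mean in the combination group, and Tgtp1 the exception at the bottom, with its lowest mean there. The untreated mean of Tgtp1 includes tumor 2, the highest of its group at 16943 normalized counts. The anti-LTbR tumors also varied least. The coefficient of variation of the 10 genes ran from 6.91% to 11.2% in that group, from 13.2% to 29.2% under ADU-S100, from 14.4% to 29.4% under the combination and from 17.4% to 33.4% in untreated tumors, and it was smallest under anti-LTbR for all 10. Over 11921 genes with a mean of at least 100 normalized counts, the median coefficient of variation was 8.39% under anti-LTbR, 9.27% under ADU-S100, 10.3% under the combination and 12.2% in untreated tumors. Spread was described and not tested.

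**Figure D2:**
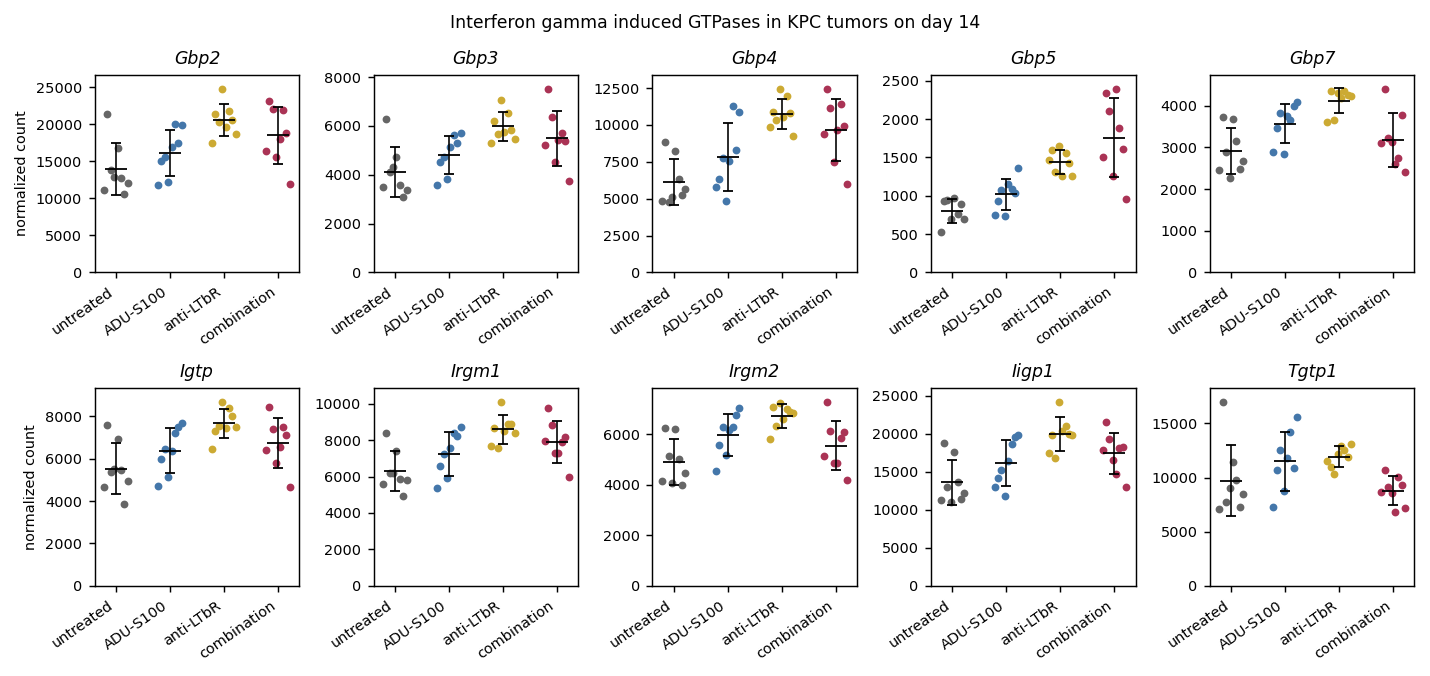
Normalized counts of the 10 GTPases in 32 KPC tumors, 1 panel per gene with its own y axis from 0, 1 point per tumor, and the mean and SD (n = 8) in black. Means of 9 genes are highest under anti-LTbR, where the points are also closest together, while Gbp5 reaches 2390.0 under the combination and the highest untreated tumor is at 16943 for Tgtp1.

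Whether the lymphotoxin β receptor agonist alone changed these genes was asked by comparing anti-LTbR with untreated tumors. Under anti-LTbR 9 of the 10 GTPases were higher than in untreated tumors (limma, adjusted p under 0.05 over 16691 genes), against 7.21% of all genes tested. The median log2 change of the 10 was 0.54, that of all genes tested 0.003. In whole-tumor RNA, more cells that carry a transcript and more of it per cell cannot be told apart, and the leukocyte marker Ptprc was higher in the same comparison (log2 change 0.37, limma adjusted p = 0.0139). None of the 10 reached 2-fold. Of all genes tested, 0.653% were at least 2-fold higher with an adjusted p under 0.05. Throughout, a log2 change is on the scale of log2(normalized count + 1), and a call is an adjusted p under 0.05.

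Among the guanylate-binding proteins, Gbp5, which promotes assembly of the NLRP3 inflammasome, had the largest log2 change of the 10. It ran from 524 through a median of 831 to 971 normalized counts in untreated tumors, and from 1261 through 1446 to 1651 under anti-LTbR. All 8 anti-LTbR tumors lay above all 8 untreated tumors, and the log2 change was 0.86 (95% interval 0.63 to 1.10, adjusted p = 0.000529, limma). Gbp4 ranged from 4781 through a median of 5436 to 8876 normalized counts in untreated tumors and from 9251 through 10656 to 12428 under anti-LTbR. Here too the groups did not overlap, as was the case in the higher direction for 0.809% of genes, and the log2 change was 0.84 (0.58 to 1.10, limma adjusted p = 0.000854). Gbp2, which helps to break pathogen vacuoles, was at 10596, 12825 and 21353 normalized counts (lowest, median and highest) in untreated tumors and at 17536, 20453 and 24737 under anti-LTbR. The groups overlapped because untreated tumor 2 reached the level of the treated tumors, and the log2 change was 0.59 (0.34 to 0.85, limma adjusted p = 0.00664). Gbp3 and Gbp7 had log2 changes of 0.57 and 0.52 (limma adjusted p = 0.00684 and 0.00374). For Gbp7, 6 of 8 anti-LTbR tumors lay above every untreated tumor, and for Gbp3 this held for 2.

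The regulators moved by similar amounts. Irgm1 ran from 4949.9 through 6024 to 8375 normalized counts in untreated tumors and from 7573 through 8599 to 10078 under anti-LTbR. The ranges overlapped, with 6 anti-LTbR tumors above every untreated tumor, and the log2 change was 0.46 (0.27 to 0.65, limma adjusted p = 0.00551). Log2 changes of Irgm2 and Igtp were 0.47 and 0.49 (limma adjusted p = 0.00568 and 0.00996).

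Of the effectors, Iigp1 was called and Tgtp1 was not. Iigp1 ran from 11051 through 12568 to 18815 normalized counts in untreated tumors and from 16863 through 19983 to 24139 under anti-LTbR, with a log2 change of 0.57 (0.34 to 0.81, limma adjusted p = 0.00512). Tgtp1 ran from 7129 through 8752 to 16943 normalized counts in untreated tumors and from 10317 through 12034 to 13129 under anti-LTbR. Its anti-LTbR range lay inside the untreated range, and the log2 change of 0.35 (0.05 to 0.65) was not called (limma adjusted p = 0.0968). The highest untreated value of Tgtp1 was that of tumor 2. Without this tumor the log2 change was 0.47 and passed the test (limma adjusted p = 0.00555), so that the count of GTPases called rose to 10, and leaving out any other tumor kept it at 9.

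The combination was set against untreated tumors to ask what both agents did together. Of the 10 GTPases, 6 were higher under the combination (limma, adjusted p under 0.05 over 16909 genes), namely Gbp2, Gbp3, Gbp4, Gbp5, Irgm1 and Iigp1, against 19.6% of all genes tested. The untreated tumors are those of the comparison above. The median log2 change of the 10 was 0.35, that of all genes tested -0.02. Gbp5 was the only member past 2-fold, and 5.16% of all genes tested were at least 2-fold higher with an adjusted p under 0.05.

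Gbp5 ran from 953 through a median of 1749 to 2390.0 normalized counts in combination tumors, against 524 to 971 in untreated tumors. Of the combination tumors, 7 lay above all untreated tumors and 1, tumor 8, lay within their range, and the log2 change was 1.10 (95% interval 0.71 to 1.48, limma adjusted p = 0.000203). Gbp4 ran from 6028 through 9781 to 12429 normalized counts, with 6 of 8 combination tumors above all untreated tumors and a log2 change of 0.66 (0.33 to 1.00, limma adjusted p = 0.00324). Gbp2 and Gbp3 had log2 changes of 0.41 and 0.42 (limma adjusted p = 0.0380 and 0.0281), and their groups overlapped more, with 3 and 2 combination tumors above all untreated tumors. Gbp7, which is known to support vacuole attack and autophagy, was at 2275, 2787 and 3721 normalized counts (lowest, median and highest) in untreated tumors and at 2419, 3119 and 4400.2 under the combination. These ranges nearly coincided, and the log2 change was 0.12 (-0.15 to 0.39, limma adjusted p = 0.470).

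Of the regulators, Irgm1 alone was called, with 5952, 7952 and 9777 normalized counts (lowest, median and highest) under the combination and a log2 change of 0.33 (0.11 to 0.56, limma adjusted p = 0.0190). Igtp and Irgm2 had log2 changes of 0.29 and 0.18, with intervals of 0.01 to 0.58 and -0.08 to 0.43 (limma adjusted p = 0.0864 and 0.241). The effector Iigp1 ran from 13049.6 through 18024 to 21616 normalized counts, and the log2 change was 0.37 (0.10 to 0.63, limma adjusted p = 0.0257). The effector Tgtp1 ran from 6769 through 8879 to 10664 normalized counts under the combination, and its log2 change was -0.10 (-0.43 to 0.23, limma adjusted p = 0.624). The sign of this change did not hold in every fit that left out 1 tumor. No combination tumor lay above all untreated tumors for Tgtp1.

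The calls of the combination against untreated tumors rested in part on single tumors. The count fell from 6 to 3 without untreated tumor 1 or without combination tumor 2 and ran up to 7 in other fits that left out 1 tumor, and it was 2 (Gbp4 and Gbp5) among libraries above 14000000 recovered reads, a limit chosen after seeing the data. Gbp4, Gbp5 and Irgm1 were called in all 16 fits that left out 1 tumor.

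**Figure D3:**
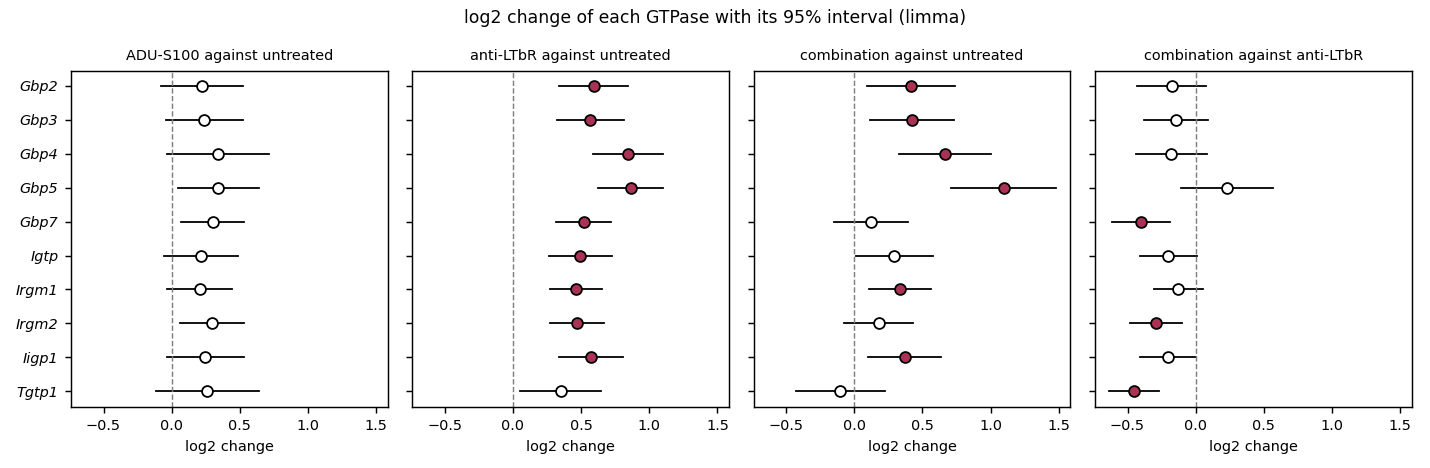
Log2 change of each GTPase (point) with its unadjusted 95% interval (line) in 4 comparisons of 8 against 8 tumors. Filled points have a limma adjusted p under 0.05. The anti-LTbR panel has 9 filled points at 0.46 to 0.86, the ADU-S100 panel none, and in the last panel Gbp7, Irgm2 and Tgtp1 are filled on the negative side.

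The STING agonist alone was set against untreated tumors in the same way. None of the 10 GTPases was called under ADU-S100 and neither was any of the 16613 genes tested by limma (0% called). At an unadjusted p under 0.05 there were 2408 genes (14.5%), 3 of them GTPases of this set, Gbp5, Gbp7 and Irgm2. Other tools called 1 gene (edgeR) and 52 genes (DESeq2), none of them among the 10. The log2 changes of all 10 were positive, from 0.21 (Irgm1) to 0.34 (Gbp5), with a median of 0.25 beside -0.004 over all genes tested. Gbp5 ran from 739.8 through a median of 1055 to 1359 normalized counts under ADU-S100, and 5 of 8 tumors lay above all untreated tumors. Its log2 change was 0.34 (0.04 to 0.64, limma adjusted p = 0.313). Gbp7 and Irgm2 had log2 changes of 0.30 each, with 4 of 8 ADU-S100 tumors above all untreated tumors in both (limma adjusted p = 0.293 and 0.295). The widest interval was that of Tgtp1, from -0.12 to 0.64, so that changes up to these sizes could not be told from 0 with 8 tumors a group.

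Whether the added STING agonist changed the level under anti-LTbR was asked by comparing the combination with anti-LTbR alone. Of the 10 GTPases, 3 were lower under the combination and none was higher (limma over 16932 genes), against 15.3% of all genes lower and 11.3% higher. Tgtp1 ran from 6769 to 10664 normalized counts under the combination and from 10317 to 13129 under anti-LTbR. Of the combination tumors, 7 of 8 lay below every anti-LTbR tumor, and the log2 change was -0.45 (-0.63 to -0.27, limma adjusted p = 0.00193). Gbp7 ran from 3620.0 through a median of 4249 to 4359 normalized counts under anti-LTbR. Of the combination tumors 6 lay below this range and 1 above it, and the log2 change was -0.40 (-0.61 to -0.19, limma adjusted p = 0.00919). Irgm2 ran from 5805 through 6849 to 7224 normalized counts under anti-LTbR and from 4182 through 5492 to 7255 under the combination, with 4 combination tumors below the anti-LTbR range and a log2 change of -0.29 (-0.48 to -0.10, limma adjusted p = 0.0261). That call was lost without anti-LTbR tumor 2 or combination tumor 5 and in edgeR with TMM or RLE factors (adjusted p = 0.0528 and 0.0514). Among libraries above 14000000 recovered reads, Tgtp1 alone was called.

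The other 7 GTPases were not called in this comparison. Gbp2, Gbp3, Gbp4, Igtp, Irgm1 and Iigp1 had log2 changes from -0.20 to -0.13, and their intervals reached from -0.44 to 0.09. Gbp5 was the only one with a positive value, 0.23 (-0.11 to 0.57, limma adjusted p = 0.300). For Gbp5 the combination tumors were the more scattered, with 4 above and 2 below every anti-LTbR tumor.

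Against ADU-S100 alone, which asks what the antibody added, 1 GTPase was higher and 1 lower under the combination (limma over 16811 genes), beside 20.2% and 26% of all genes. Gbp5 was higher, with 6 of 8 combination tumors above every ADU-S100 tumor and a log2 change of 0.75 (0.37 to 1.13, limma adjusted p = 0.00273). Tgtp1 was lower, with a log2 change of -0.36 (-0.66 to -0.07, limma adjusted p = 0.0422), a call that was lost in 11 of the 16 fits that left out 1 tumor, with no filter on low counts (limma adjusted p = 0.0552) and in edgeR with TMM factors (adjusted p = 0.0517). Tgtp1 ran from 7316 through 11369 to 15633 normalized counts under ADU-S100, so that only 2 combination tumors lay below that range. With the tumor number as a block in the fit, 1 GTPase was called in this comparison in place of 2. The remaining 8 GTPases had log2 changes from -0.18 to 0.33.

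The interaction asks whether the log2 change under both agents differs from the sum of the changes under each. It was negative for all 10 GTPases, and for 3 it passed the test (limma over 17649 genes and all 32 tumors), against 11% of all genes with a negative call. The called genes were Tgtp1 at -0.71 (-1.13 to -0.29, adjusted p = 0.0157), Gbp7 at -0.70 (-1.01 to -0.38, adjusted p = 0.00265) and Irgm2 at -0.59 (-0.89 to -0.29, adjusted p = 0.00630). Each of these 3 stayed called in all 32 fits that left out 1 tumor, and that of Tgtp1 was lost among libraries above 14000000 recovered reads (-0.69, limma adjusted p = 0.0523). For the other members the value lay between -0.52 (Gbp4) and -0.11 (Gbp5), and for Gbp5 its interval was -0.56 to 0.34 (limma adjusted p = 0.764). The negative sign for Gbp5 did not hold in every fit that left out 1 tumor. The count of 3 rose to 7 without untreated tumor 2, to 6 without ADU-S100 tumor 1, and to 5 without ADU-S100 tumor 4 or combination tumor 2.

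Because a shift of scale in a library cancels between genes of the same tumor, the contrast of Gbp5 with Tgtp1 and Gbp7 was also read within tumors. These pairs were chosen after their values were seen, and the differences are given as a description. The log2 level per kilobase of Gbp5 minus that of Tgtp1 averaged -4.62 ± 0.39 (SD, n = 8) in untreated tumors, -4.54 ± 0.14 under ADU-S100, -4.10 ± 0.21 under anti-LTbR and -3.42 ± 0.44 under the combination. The combination range, -3.96 to -2.55, did not overlap that of untreated tumors (-5.24 to -4.07) or of ADU-S100 tumors (-4.76 to -4.34), and it overlapped that of anti-LTbR tumors (-4.43 to -3.83). On the same scale Gbp5 minus Gbp7 showed the same order of means, from -2.11 ± 0.25 in untreated tumors through -2.07 ± 0.13 and -1.76 ± 0.16 to -1.13 ± 0.43 under the combination. Gbp2 minus Gbp3, neighbours on chromosome 3, stayed between 2.12 and 2.16 in all 4 group means.

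**Figure D4:**
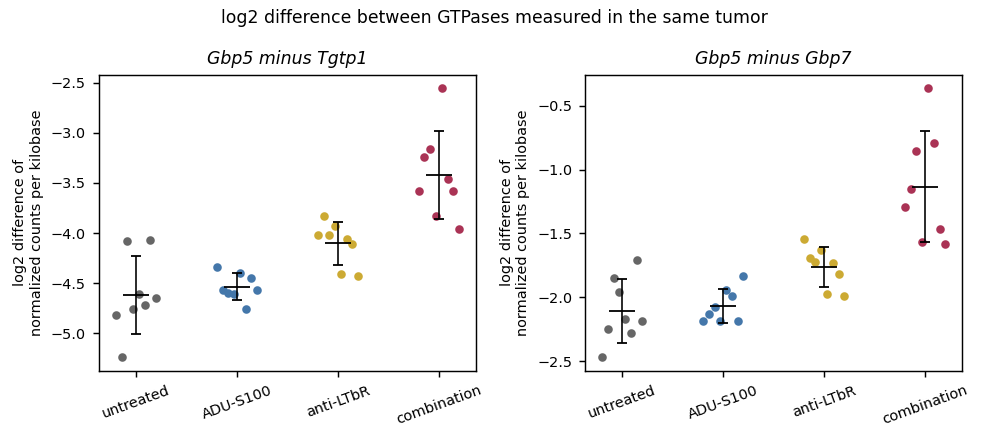
Difference of log2 levels per kilobase between GTPases of the same tumor, Gbp5 minus Tgtp1 on the left and Gbp5 minus Gbp7 on the right, 1 point per tumor with mean and SD (n = 8) in black. Values rise from untreated and ADU-S100 tumors through anti-LTbR to the combination, whose points on the left lie at -3.96 to -2.55.

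Within groups the 10 genes varied together from tumor to tumor. Untreated tumor 2 was the highest of its group for 9 of the 10, combination tumor 2 for 9, ADU-S100 tumor 8 for 8 and anti-LTbR tumor 4 for 8, while combination tumor 8 was the lowest of its group for 9. The mean log2 deviation of the 10 genes from their group means was 0.51 in untreated tumor 2 and -0.49 in combination tumor 8. Over the 32 tumors, with group means taken out, the 45 pairs of these genes had a median Pearson r of 0.844, from 0.482 (Gbp5 with Tgtp1) to 0.964 (Gbp2 with Gbp3). The genes of a pair share each library and its scaling, so r is a description. Gbp5 was the member least tied to the rest, with r between 0.482 and 0.766.

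**Figure D5:**
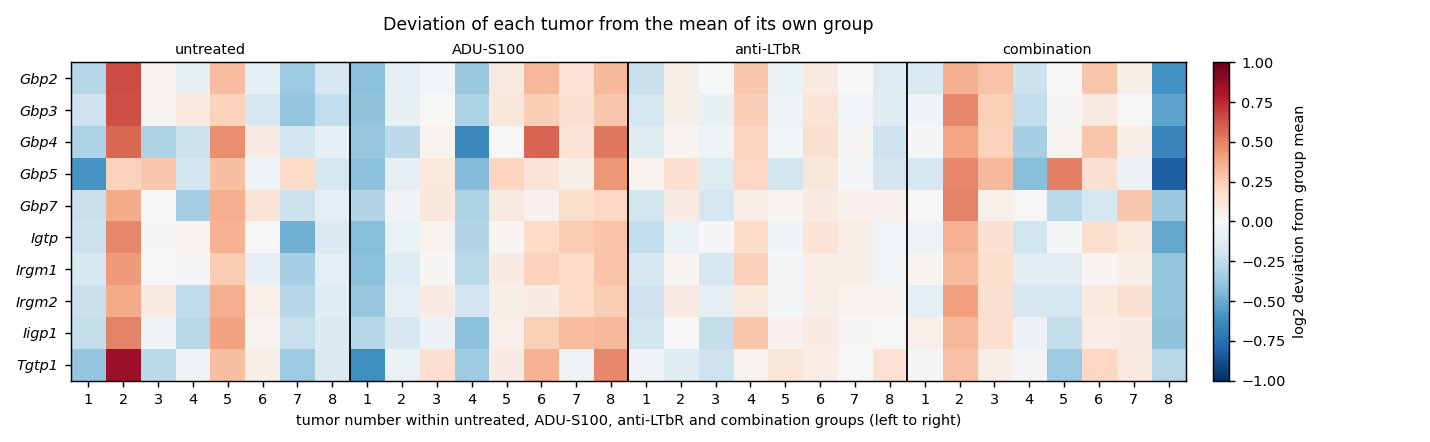
Log2 deviation of each tumor (columns, 8 per group) from the mean of its own group for each GTPase (rows), red above and blue below the mean, on a scale from -1 to 1. Whole columns share a colour, as in untreated tumor 2 (mean deviation 0.51) and combination tumor 8 (-0.49), and the anti-LTbR columns are the palest.

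Other genes followed the same tumor-to-tumor pattern. Among 17639 genes, those whose within-group deviations were most like the mean of the 10 were Gbp6 (r = 0.973), Gbp2b (0.961), Samhd1 (0.951), Gm4951 (0.937) and Gm12185 (0.937), over 32 tumors. Gbp6 and Gbp2b are further guanylate-binding proteins, and Samhd1 is a nucleotide-degrading enzyme that restricts viruses. Gm12185 shares exon bases with Tgtp1. Of the 31-base words of Gbp4, 6.91% also occur in Gbp6, of Gbp2 4.61% in Gbp2b and of Iigp1 4.63% in Gm4951. The part of shared reads in r was not tested. Irf1 was at 0.861 and Ifng at 0.768. Of the cell type markers described below, Ptprc (all leukocytes) was at 0.539, the 6 macrophage markers at 0.451 to 0.581, the 6 T cell markers at -0.0786 to 0.563 and the 4 tumor epithelium markers at -0.606 to -0.29. The remaining markers were at -0.186 to 0.528. Leaving out untreated tumor 2 and combination tumor 8, which lay farthest from the median, changed r to 0.965 for Gbp6, 0.837 for Irf1, 0.68 for Ifng and 0.549 for Ptprc. It changed the ranges to 0.36 to 0.43 for macrophage markers and to -0.512 to -0.213 for tumor epithelium markers.

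Other members of the GTPase families were changed too. Of 16 other interferon-inducible GTPases, 10 were higher and none lower under anti-LTbR and 6 were higher and none lower under the combination (limma, against untreated tumors), where 7.21% and 19.6% of all genes tested were higher. The median log2 changes of the 16 were 0.57 and 0.26. Gbp10 had log2 changes of 1.42 and 1.18 under anti-LTbR and the combination, Gbp11 of 1.04 and 1.09, Gbp8 of 0.84 and 0.80, and Gm4951, a gene like Iigp1, of 0.70 and 0.59. Interactions were negative and called for 7 of the 16, against 11% of all genes, and positive and called for none, against 7.33%. Among these 7 was Tgtp2, the copy that shares words with Tgtp1, at -0.60 (limma adjusted p = 0.01005), named after its values were seen.

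Upstream of the GTPases, 8 of 14 genes of the interferon gamma pathway were higher and 1 lower under the combination than in untreated tumors (Irf9, named after its values were seen), beside 19.6% of all genes higher and 23.6% lower. Under anti-LTbR 6 were higher and none lower, beside 7.21% and 8.1%. Ifng itself was sparse, with 24.8, 33.3 and 68.2 normalized counts (lowest, median and highest) in untreated tumors, 55.4, 82.6 and 102 under anti-LTbR and 44.0, 110 and 161 under the combination. Both treated ranges overlapped the untreated one, and its log2 changes were 1.06 and 1.34 (limma adjusted p = 0.00665 and 0.00174). Irf1, which binds ISRE elements, had log2 changes of 0.41 and 0.42 and an interaction of -0.10 (limma adjusted p = 0.690). Socs1, a feedback inhibitor of the pathway, and Irf8 had log2 changes of 0.69 and 0.64 under the combination.

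Other targets of interferon gamma were examined beside the 10 GTPases. Of 17 such targets, 11 were higher and none lower under anti-LTbR, where 7.21% of all genes were higher. Under the combination 11 were again higher and none lower, where 19.6% of all genes were higher. The median log2 change of the 17 was 0.45 in both comparisons, beside 0.54 and 0.35 for the 10 GTPases, and the difference between the lists was not tested. Nos2, which makes nitric oxide, had log2 changes of 1.35 under anti-LTbR and 1.90 under the combination, Cxcl11, a chemokine for T cells, of 1.45 and 1.48, the adhesion molecule Icam1 of 0.46 and 1.15, and Ubd of 0.58 and 0.98, where the first value of Ubd was not called (limma adjusted p = 0.0629). Of 21 tested genes on a list of type I interferon genes (22 listed, Ifnb1 below the filter), 6 were higher and none lower under anti-LTbR, beside 7.21% and 8.1% of all genes. Under the combination 3 were higher and none lower, beside 19.6% and 23.6% of all genes, so that the higher count was not above the background. These 3 were Zbp1, Ifnar2 and Oasl2, with log2 changes of 0.41, 0.40 and 0.25.

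The partners of the GTPases in autophagy and inflammasomes were taken as 1 list. Of 18 partners, 5 were higher and 6 lower under the combination, beside 19.6% and 23.6% of all genes. Neither count stood far from the background. The 5 higher were Aim2, Nlrp3, Casp4, Casp1 and Gsdmd, and the 6 lower were Atg3, Atg7, Atg12, Gabarapl1, Gabarapl2 and Map1lc3b, with log2 changes from -0.30 to -0.15. Those past the first 4 by size were named after their values were seen, and no part of the list was tested apart from the rest. Under anti-LTbR 3 were higher and 1 was lower (Atg7, an autophagy enzyme), beside 7.21% and 8.1% of all genes. The partners with the largest changes under the combination had log2 changes of 0.73 (Aim2, a DNA sensor), 0.51 (Nlrp3), 0.50 (Casp4) and 0.31 (Gsdmd, the pore former).

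Markers of cell types moved with the same comparisons. Ptprc, carried by all leukocytes, had a log2 change of 0.59 under the combination against untreated tumors (limma adjusted p = 0.000128). The summed level of 6 macrophage markers was 18767 to 38466 normalized counts in untreated tumors, 19699 to 32643 under ADU-S100, 35539 to 45480 under anti-LTbR and 32879 to 75889 under the combination. Against untreated tumors 4 of the 6 were called higher under anti-LTbR and 5 under the combination. Summed T cell markers (6 genes) were at 596 to 1474, 735 to 1263, 1067 to 1768 and 1251 to 2323 in the same order of groups, with 3 and 6 called higher. Fibroblast markers (4 genes) were at 37741 to 62176, 27110 to 72255, 29971 to 62809 and 62876 to 227641, with none called under anti-LTbR and all 4 higher under the combination. Tumor epithelium markers (4 genes) were at 15330 to 28517, 13077 to 21509, 12966 to 15939 and 6703 to 13991, with 2 and 3 called lower. Epcam, the sparsest of these 4, was named after its values were seen. Its log2 change under the combination was 0.56 and was not called (limma adjusted p = 0.309). Of 4 blood endothelium markers 1 was higher under anti-LTbR and 4 under the combination, of 4 dendritic cell markers 1 and 3, of 4 B cell markers 1 and 3, and of 4 natural killer cell markers none and none. Under ADU-S100 no marker of these lists was called against untreated tumors. Shares over all genes tested were 7.21% higher and 8.1% lower under anti-LTbR, and 19.6% higher and 23.6% lower under the combination.

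Markers also differed between the combination and anti-LTbR, the comparison in which Tgtp1, Gbp7 and Irgm2 were lower. All 4 fibroblast markers (median log2 change 1.40) and all 4 blood endothelium markers (0.58) were higher under the combination, and 3 of the 4 tumor epithelium markers were lower (-0.47 over the 4). The other tumor epithelium marker, Epcam, had a log2 change of 0.82 and was not called (limma adjusted p = 0.0596). Of the macrophage markers 3 were higher, and of the T cell markers 1, while no dendritic, B or natural killer cell marker was called. Beside these counts, 11.3% of all genes tested were higher and 15.3% lower. Ptprc had a log2 change of 0.22 (limma adjusted p = 0.0626). In the interaction, all 4 fibroblast markers (median 1.67) and 3 of the 4 blood endothelium markers were called on the positive side, as were 1 T cell and 1 natural killer cell marker, and no tumor epithelium marker was called. Over all genes tested, 7.33% were called on the positive side and 11% on the negative side. Against ADU-S100, all 6 macrophage, 6 T cell, 4 B cell, 4 natural killer cell, 4 blood endothelium and 4 fibroblast markers were higher under the combination. So were 3 of the 4 dendritic cell markers and Ptprc (log2 change 0.45, limma adjusted p = 0.00123). Of the 4 tumor epithelium markers 3 were lower. In that comparison 20.2% of all genes tested were higher and 26% lower. No marker was at 0 in any tumor. The part of cell composition in the changes of the GTPases was not tested.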

How the data were processed

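RNA of 32 whole KPC tumors was analysed, 8 in each of 4 groups taken from the sample labels. The values the authors deposited are a signal, since each library's reads per gene were scaled by a single factor. The labels list cutadapt (version 1.9), HISAT2, StringTie, STAR, Partek, DESeq2 and edgeR and the build mm39, and which of them made each table was not settled, so positions are those of GRCm38 from the reference annotation. In the larger deposited table (52 libraries) the signal comes in even steps, each step being 1 read, so read numbers could be restored (100% of values whole within 0.02 reads). Its 20 further libraries belong to another experiment and entered no comparison. For 15 of them the labels contradict each other. A deposited list of gene set scores, made by the authors from their own comparisons, was not used.

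Genes passing filterByExpr (minimum count 10) were tested with limma (version 3.58.1, R 4.3.3) on log2(normalized count + 1), with Benjamini-Hochberg adjustment over all genes tested and the 2 groups compared in the fit (all 32 tumors for the interaction). The scripts were tested on simulated data. Alternatives were a pseudocount of 0.5, no filter, edgeR (4.0.16) and DESeq2 (1.42.0) on recovered reads, a replicate block, a joint fit of all groups, a 2-fold limit and leaving out each tumor. The members and gene lists (other GTPases, interferon gamma pathway and targets, type I interferon genes, GTPase partners, cell type markers) were chosen with earlier results of these data known. Named were the 10 members, up to 4 called genes per list with the largest absolute log2 change under the combination, then Ifng and Irf1, the 5 genes most like the members over 32 tumors, the leukocyte marker Ptprc, and genes said to be named after their values were seen. Promoter motifs were searched in RefSeq windows of 300 bases. Protein sequences were not analysed here, and some genes are not reported here.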

Additional observations from a re-analysis of the deposited data

Results flagged for a closer look

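Tgtp1 stood at 16943 normalized counts in untreated tumor 2, above the other 7 tumors of its group, and the gap to the next tumor was 0.557 of the range of the group, past Dixon's 95% critical value for 8 values. On normalized counts this was the only such gap among the 40 sets of 8 values examined (10 genes in 4 groups), and chance alone gives about 1 such gap in 20 sets. On the log2 scale used in the tests the gap was 0.45 of the range, and 0 of the 40 sets passed that value. The same tumor was the highest of its group for 9 of the 10 GTPases.

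The effect of ADU-S100 on 3 GTPases differed with and without anti-LTbR. In the interaction test the log2 difference was -0.70 for Gbp7, -0.59 for Irgm2 and -0.71 for Tgtp1 (limma adjusted p = 0.00265, 0.00630 and 0.0157). On ADU-S100 alone their log2 changes against untreated tumors were 0.30, 0.30 and 0.26, and on top of anti-LTbR they were -0.40, -0.29 and -0.45.

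The 20 libraries of the other experiment carry the GTPases as well. In its 15 libraries without a settled group, the median normalized count, on the scale of the larger table, was 12278 for Gbp2, 4112 for Gbp3, 4136 for Gbp4, 892 for Gbp5 and 2861 for Gbp7. It was 4339.8 for Igtp, 5972 for Irgm1, 3900.1 for Irgm2, 14398 for Iigp1 and 6401 for Tgtp1. In the 5 libraries of that experiment labelled as the combination throughout, Gbp5 ran from 344 to 1248 and Gbp2 from 9428 to 25542, against 531 to 2509 and 10957 to 25252 in the 32 compared tumors on the same scale. No comparison was made with these libraries.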

How the results depend on the processing

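Of the 10 GTPases, the numbers called were compared with those under each alternative. With a 2-fold limit added they became 1 for the combination against untreated tumors and 0 for the 5 other tests, and under ADU-S100 alone the count was 0 in every fit run. Libraries above 14000000 recovered reads (7 left out, a limit chosen after seeing the data) gave 2 for the combination against untreated tumors and 1 for the combination against anti-LTbR. For the combination against ADU-S100, 1 in place of 2 was called with no filter on low counts, with edgeR and TMM factors and with the replicate block. Leaving out 1 tumor at a time gave 3 to 7 for the combination against untreated tumors, 9 to 10 for anti-LTbR, 0 to 0 for ADU-S100, 2 to 4 for the combination against anti-LTbR, 1 to 2 against ADU-S100 and 3 to 7 for the interaction. Over these fits the log2 change of Tgtp1 under the combination ran from -0.16 to 0.021 (limma adjusted p = 0.902 at the upper end) and the interaction of Gbp5 from -0.18 to 0.0057 (limma adjusted p = 0.987 at the upper end), against -0.10 and -0.11 with all tumors. The cause of these shifts was not tested, apart from the smaller number of tumors.

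The labels name nothing that same-numbered tumors share, so the number was not used as a pairing in the main tests. In none of the 5 comparisons did all 8 pairs have correlated deviations above 0.1, a check that cannot tell a partial pairing from none. The pairs above 0.1 numbered from 2 (combination against ADU-S100) to 6 (ADU-S100 against untreated tumors) of 8. Mean correlations ran from -0.0855 to 0.186 for the same number and from -0.0288 to 0.00996 for other numbers. At most 3 of 8 pairs correlated best with their own number. The replicate block gave counts of 7, 9, 0, 3, 1 and 3 in place of 6, 9, 0, 3, 2 and 3.

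Counts over all genes moved too. Anti-LTbR against untreated tumors gave 2555 genes, 1660 with the replicate block and 1537 in libraries above 14000000 reads. That limit gave 1450 in place of 4504 for the combination against anti-LTbR and 1568 in place of 3240 for the interaction. ADU-S100 gave 0 genes by limma, 1 by edgeR, 52 by DESeq2, 2 with the block, 1 in the joint fit and 7 above the read limit. For the combination against anti-LTbR the split was 1917 higher and 2587 lower by limma and 2087 and 1742 by edgeR with TMM factors, and for the interaction 1293 and 1947 by limma and 1697 and 1605 by DESeq2.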
